A study of Mus musculus with 10 samples.

Results

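The 10 genes described here belong to the neuronal microtubule: Map1a, Map1b, Map2, Map4, Map6, Mapt, Tubb3, Tubb2a, Stmn2 and Dclk1. They were chosen by symbol, as microtubule-associated proteins with tau (the product of Mapt), β-tubulins and microtubule regulators. All 10 identifiers were found among the 22255 genes measured, and all 10 passed the filter on low counts that left 14358 genes for testing. Map2 and Mapt were also followed by transcript, with 24 and 12 entries among 102392 transcripts.

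RNA came from hippocampal synaptoneurosomes of C57Bl/6J mice. Synaptoneurosomes are synaptic terminals that break off during homogenisation, seal again and keep attached postsynaptic parts. There were 5 libraries from mice given vehicle and 5 from mice given AM6545 sub-chronically. AM6545 is a CB1 receptor antagonist that enters the brain poorly. The library titles mark both groups as WT (wild type), and no genetic change is named for either group. Age, sex, dose, vehicle composition and whether a library is 1 animal or a pool are not given in the sources used here. The tests therefore compare the difference between groups with the spread between libraries, which may in part be technical.

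Microtubules are hollow polymers of α- and β-tubulin that give axons and dendrites their shape and carry motor transport. Structural microtubule-associated proteins bind along the polymer and are sorted within the neuron: MAP2 is a marker of dendrites, whereas tau is concentrated in axons. Several of these mRNAs, that of Map2 among them, are known to be carried into neurites, which is why their level in a synaptic fraction is of interest. The libraries held 18106112 to 25899794 counts each. Marker genes were present for excitatory neurons, with summed levels of 2580 to 2992 CPM (counts relative to the library total, with TMM factors between libraries). Oligodendrocyte markers were also abundant, at 12272 to 28275 CPM, so the fraction held RNA of glia too. In such bulk RNA, fewer cells or compartments of a type cannot be told apart from less RNA in each.

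The isoforms of Map2 and Mapt differ by whole coding exons, and the exons that distinguish the measured transcripts are shown first. Map2 has a 93-base exon that encodes an additional microtubule-binding repeat. In the GENCODE M21 annotation (GRCm38) it lies on the plus strand at chr1:66431527-66431619, and it is shown because Map2-207 carries it and Map2-201, Map2-202 and Map2-205 do not.
Map2 93-base repeat exon: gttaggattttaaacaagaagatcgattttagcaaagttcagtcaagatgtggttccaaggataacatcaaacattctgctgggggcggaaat
The exons of Mapt shown, also on the plus strand, separate its 3 most counted transcripts. A pair of 87-base exons, at chr11:104287123-104287209 and chr11:104289908-104289994, encodes the amino-terminal inserts of tau, which are both in Mapt-201 and both absent from Mapt-204 and Mapt-205. A 54-base exon at chr11:104307881-104307934 is in Mapt-205 alone.
Mapt first 87-base exon: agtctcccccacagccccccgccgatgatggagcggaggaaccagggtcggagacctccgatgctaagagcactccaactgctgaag
Mapt second 87-base exon: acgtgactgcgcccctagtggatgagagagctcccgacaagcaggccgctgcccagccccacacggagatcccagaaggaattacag
Mapt 54-base exon: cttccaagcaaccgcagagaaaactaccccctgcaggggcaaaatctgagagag

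In none of the 10 genes was a difference between AM6545 and vehicle libraries detected beyond the spread between libraries. In edgeR's quasi-likelihood test with Benjamini-Hochberg adjustment over all 14358 genes, no member passed, and every member's adjusted p was 0.9998. Over all genes, 0% passed (0 of 14358). At an unadjusted p under 0.05 the test called 0 of 10 members against 1.88% of all genes. DESeq2 and limma-voom (with sample quality weights) also called 0 members, adjusted or not. The 2 groups overlapped in every member, whereas 0.293% of all genes had groups that did not overlap. Mean levels were higher after AM6545 for 6 members and lower for 4, with a median log2 fold change of 0.036, beside -0.0057 over all genes tested (5th to 95th percentile -0.26 to 0.24). No member's 95% interval reached a change of more than 1.32-fold in either direction.

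**Figure D1:**
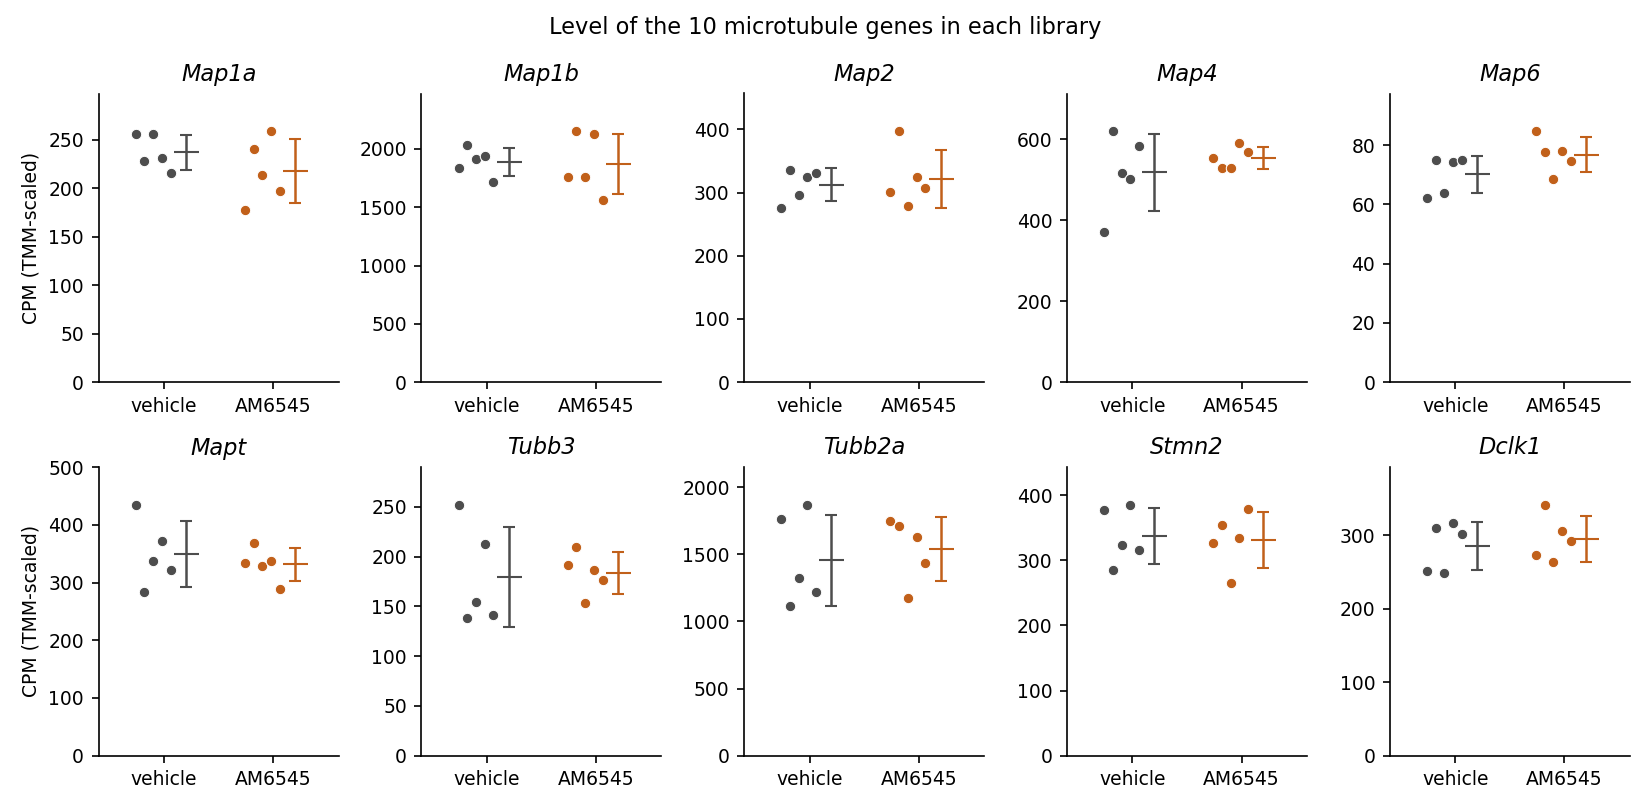
Level of each gene (CPM, linear axis from 0) in the 5 vehicle and 5 AM6545 libraries: each point is 1 library, in replicate order from left to right, and the bar beside the points is the mean ± SD. The groups overlap in all 10 panels, and vehicle replicate 1 is the lowest point for Map4 (370.1 CPM) and the highest for Mapt (435 CPM) and Tubb3 (252.1 CPM).

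Levels of different genes were ordered per length, as TPM-like values (estimated counts divided by transcript length and scaled to the same total in each library, means in vehicle and AM6545). Tubb2a was highest, at 1717 ± 308 and 1875 ± 304 (mean ± SD, n = 5 per group), and its lowest library, 1392, lay above the highest of the next gene. Map1b followed at 1055 ± 119 and 1044 ± 151. Mapt (356 ± 34.6 and 338 ± 26.7), Stmn2 (312 ± 23.9 and 315 ± 45) and Map4 (281 ± 74.2 and 304 ± 17.5) formed a middle group in which neighbours overlapped between libraries. Tubb3, at 182 ± 37.2 and 193 ± 22.6, overlapped with Map4 only through vehicle replicate 1, where Map4 was at 169. Map2 (117 ± 18.6 and 123 ± 15.7) and Dclk1 (100.01 ± 19.0 and 104 ± 10.9) overlapped with each other and lay below Tubb3 in every library. Map1a (43.6 ± 2.89 and 40.9 ± 5.76) and Map6 (42.2 ± 6.25 and 46.5 ± 3.90) were lowest and overlapped. Mapt mRNA was thus above Map2 mRNA per length in all 10 libraries. By CPM, which is not per length, it was below Map2 in vehicle replicates 2 and 5 and AM6545 replicates 2 and 5.

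These per-length levels depend on which transcripts the counts were assigned to. For Map1b, the full-length coding transcript of 11808 bases held 52.6% of the gene's counts, and the non-coding entries Map1b-206 (2150 bases) and Map1b-202 (1759 bases) held 25.6% and 21.7%. The abundance-weighted length of Map1b was therefore 3472 bases, which raised its level relative to Map1a, whose weighted length was 10414 bases. The weighted length was 1895 bases for Mapt and 5153 bases for Map2, so their order per length also depends on the transcript models. For Tubb2a, 56.4% of its 31-base words also occur in other genes, 51.1% in Tubb2b, so the division of reads between these tubulins is uncertain. The share was 3.21% for Tubb3 and under 1.4% for the other members.

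MAP1A and MAP1B are large filamentous proteins, cleaved into heavy and light chains, with MAP1B best known from growing axons and MAP1A from mature dendrites. Map1b, the most counted member, was at 1841, 2035, 1911, 1938 and 1715 CPM in vehicle 1 to 5 and at 1759, 2153, 1761, 2126 and 1565 CPM in AM6545 1 to 5. The AM6545 libraries thus held both the highest and the lowest value, and the log2 fold change was -0.012 (SE 0.11, 95% interval -0.25 to 0.23; edgeR). Map1a was at 256, 227, 256, 231 and 215 CPM in vehicle 1 to 5. It was at 177, 241, 214, 259 and 197 CPM in AM6545 1 to 5, where 3 libraries lay below every vehicle library and 1 lay above. The difference, -0.12 (SE 0.11, 95% interval -0.36 to 0.11; edgeR), did not pass the test. In M21 an exon of Ppip5k1 overlaps Map1a on the other strand, and the use of strand in counting is not given in the sources used here.

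MAP2 is the main structural microtubule-associated protein of dendrites and spaces microtubules there. Map2 was at 276, 336, 296, 325 and 331 CPM in vehicle 1 to 5 and at 301, 397, 278, 325 and 308 CPM in AM6545 1 to 5. Only AM6545 replicate 2 lay above all vehicle libraries, and the log2 fold change was 0.041 (SE 0.11, 95% interval -0.19 to 0.27). Gm10558 overlaps an exon of Map2 on the other strand. MAP6, a protein that protects microtubules from cold, gave the largest positive change of the 10 in edgeR's fit, whereas with limma-voom Tubb2a (0.23) and Tubb3 (0.22) lay above Map6 (0.13). Map6 was at 62.3, 74.9, 64.0, 74.5 and 75 CPM in vehicle 1 to 5 and at 84.8, 77.7, 68.6, 78.2 and 74.7 CPM in AM6545 1 to 5. There 3 AM6545 libraries exceeded every vehicle library and none fell below, with a log2 fold change of 0.13 (SE 0.095, 95% interval -0.070 to 0.33), which did not pass the test.

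Tau stabilises axonal microtubules and is the protein of neurofibrillary tangles. Mapt was at 435, 283, 338, 373 and 322 CPM in vehicle 1 to 5 and at 334, 369, 328, 338 and 289 CPM in AM6545 1 to 5. All AM6545 libraries lay within the vehicle range, and the log2 fold change was -0.078 (SE 0.12, 95% interval -0.32 to 0.17). Without vehicle replicate 1 it was 0.013. MAP4, the related protein that is expressed outside neurons as well as within them, showed the opposite spread. Map4 was at 370.1, 619.8, 516, 503 and 582 CPM in vehicle 1 to 5 and at 553, 529, 528, 590.3 and 569 CPM in AM6545 1 to 5. Its log2 fold change of 0.096 (SE 0.12, 95% interval -0.16 to 0.35) became -0.0032 without vehicle replicate 1. The Mapt to Map2 ratio of CPM, which is not per length and is given only to compare libraries, was 1.58 in vehicle replicate 1 and 0.842 in vehicle replicate 2, and the remaining 8 libraries lay between them. Its mean was 1.14 ± 0.278 with vehicle and 1.04 ± 0.109 with AM6545 (mean ± SD, n = 5 per group).

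Tubb3 encodes the β-tubulin that is the usual marker of neurons, and Tubb2a another β-tubulin of the brain. Tubb3 was at 252.1, 139, 155, 212 and 142 CPM in vehicle 1 to 5 and at 192, 209.9, 153, 186 and 176 CPM in AM6545 1 to 5. Tubb2a was at 1763, 1111, 1322, 1869 and 1217 CPM in vehicle 1 to 5 and at 1743, 1706, 1172, 1631 and 1431 CPM in AM6545 1 to 5. For both genes vehicle replicates 1 and 4 were high and replicates 2, 3 and 5 low, and every AM6545 library fell inside the vehicle range. The log2 fold changes were 0.030 (SE 0.15, 95% interval -0.30 to 0.36) for Tubb3 and 0.078 (SE 0.15, 95% interval -0.25 to 0.40) for Tubb2a. These were the widest intervals of the 10 genes.

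Stathmin 2 binds free tubulin dimers and favours microtubule disassembly, and it is carried in axons and growth cones. Stmn2 was at 378, 285, 323, 385 and 316 CPM in vehicle 1 to 5 and at 326, 353, 264, 334 and 379 CPM in AM6545 1 to 5. The log2 fold change was -0.026 (SE 0.12, 95% interval -0.27 to 0.22). DCLK1 carries doublecortin domains that bind microtubules, joined to a kinase domain. Dclk1 was at 251, 309.7, 249, 317 and 301 CPM in vehicle 1 to 5 and at 273, 341, 263, 305 and 292 CPM in AM6545 1 to 5. Its log2 fold change was 0.046 (SE 0.11, 95% interval -0.18 to 0.27), and exons of Gm21954 and Gm42609 overlap it on the other strand.

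**Figure D2:**
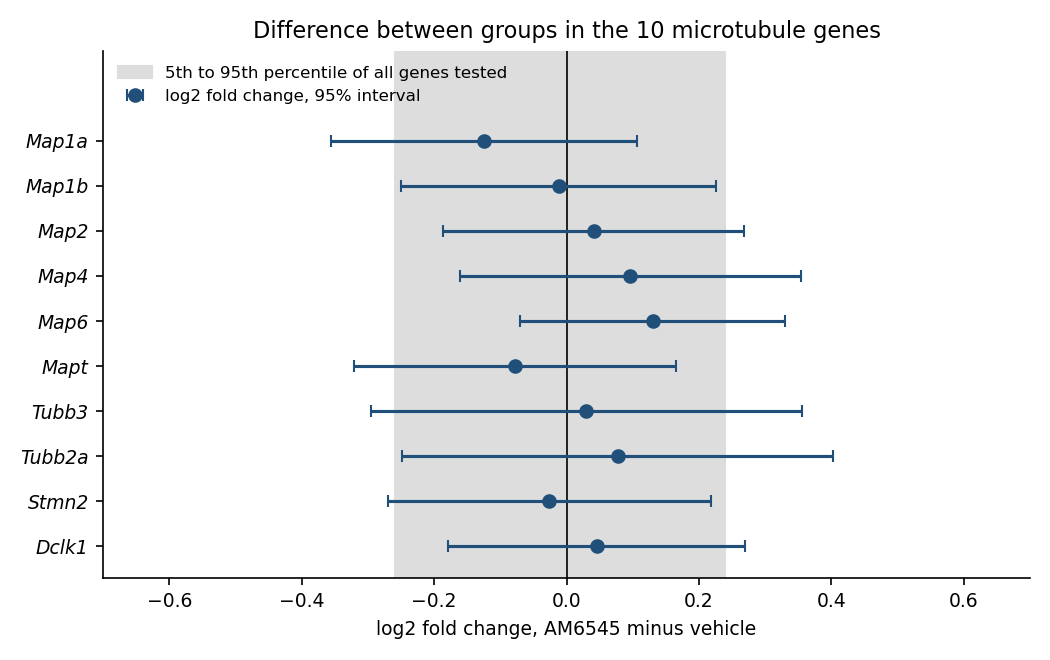
Log2 fold change of each gene (horizontal axis, AM6545 minus vehicle, 5 libraries each) with its 95% interval from edgeR; the grey band runs from the 5th to the 95th percentile of the fold changes of all 14358 genes tested. All 10 estimates lie between -0.12 and 0.13, inside the band, and every interval includes 0.

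Added over the 10 genes, the level was 5635 ± 411 CPM with vehicle and 5721 ± 572 CPM with AM6545 (mean ± SD, n = 5 per group). AM6545 libraries held both ends of the range, 5030 and 6377 CPM. The spread between libraries was not even over the genes. In vehicle libraries the coefficient of variation was 27.9% for Tubb3, 23.2% for Tubb2a and 18.5% for Map4, against 6.30% for Map1b and 7.59% for Map1a. In AM6545 libraries it was lowest for Map4, at 4.82%, and highest for Tubb2a, at 15.4%. Without vehicle replicate 1 the vehicle value was 9.997% for Map4 and 11.3% for Mapt (16.4% with it), while that of Tubb2a stayed at 24.4%.

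Although no member passed the test between the groups, some pairs varied together from library to library. Over the 45 pairs, Pearson's r of log2 CPM with each group's mean removed (10 libraries) ranged from -0.87 to 0.92 and was positive in 32 pairs. Of the 45 pairs, 2 had an adjusted permutation p under 0.05 (100000 resamples, two-sided). Map2 and Dclk1 had r = 0.91 (permutation p = 0.0010, adjusted p = 0.033) and rho = 0.88 (permutation p = 0.0029, adjusted p = 0.066). Tubb3 and Tubb2a had r = 0.92 (permutation p = 0.0015, adjusted p = 0.033) and rho = 0.94 (permutation p = 0.00088, adjusted p = 0.040). Without the 2 libraries farthest from the median, r was 0.91 and 0.94. With each library left out, r stayed between 0.89 and 0.95 for Map2 and Dclk1, and between 0.90 and 0.97 for Tubb3 and Tubb2a. With 9 libraries, however, the number of pairs with an adjusted p under 0.05 was 0 without vehicle replicate 2, 3 or 5 or AM6545 replicate 1, 2 or 4, and 4 without AM6545 replicate 5. Map2 and Dclk1 passed the adjustment in 4 of 11 alternatives (each library left out, or scaling by total counts alone), and Tubb3 and Tubb2a in 2 of 11. Without AM6545 replicate 3, 2 pairs passed but not these (adjusted permutation p = 0.054 and 0.063), and with total counts alone Tubb3 and Tubb2a had an adjusted permutation p = 0.10. In all 11 alternatives r was positive for both pairs.

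**Figure D3:**
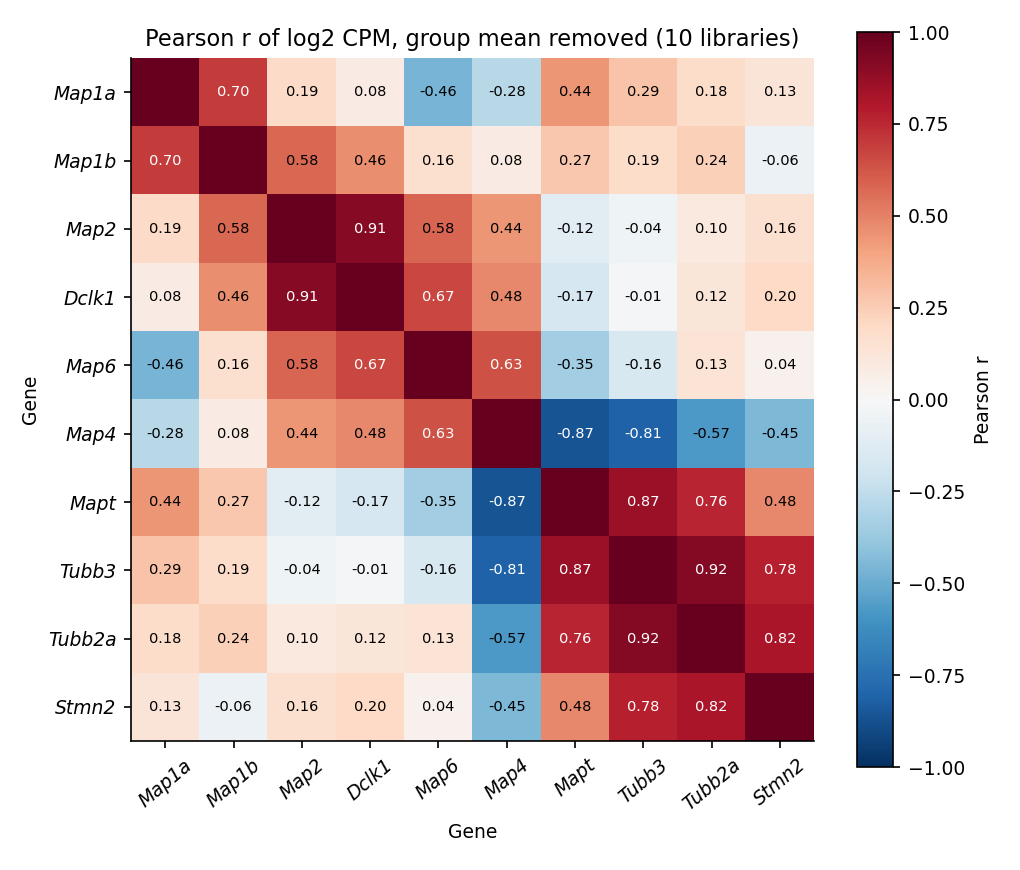
Pearson r of log2 CPM with the group mean removed for each pair of the 10 genes over 10 libraries; red is positive, blue negative, and the number in each square is r. Map2 with Dclk1 (0.91) and Tubb3 with Tubb2a (0.92) are the 2 pairs with an adjusted p under 0.05. Map4 has a negative r with Mapt (-0.87) and Tubb3 (-0.81), neither with an adjusted p under 0.05.

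Mapt and Tubb3 had r = 0.87 (permutation p = 0.0051, adjusted p = 0.072) and rho = 0.89 (permutation p = 0.0046, adjusted p = 0.070). Stmn2 had r = 0.82 with Tubb2a (permutation p = 0.013, adjusted p = 0.095) and 0.78 with Tubb3 (permutation p = 0.012, adjusted p = 0.095). Mapt and Stmn2 had r = 0.48 (permutation p = 0.18, adjusted p = 0.43), and 0.090 without the 2 libraries farthest from the median. Map4 had r = -0.87 against Mapt (permutation p = 0.0064, adjusted p = 0.072) and rho = -0.76 (permutation p = 0.028, adjusted p = 0.20), and r = -0.81 against Tubb3 (permutation p = 0.020, adjusted p = 0.13). Against Tubb2a it was -0.57 (permutation p = 0.15, adjusted p = 0.42) and against Stmn2 -0.45 (permutation p = 0.23, adjusted p = 0.50), and without the 2 farthest libraries -0.23 and 0.025. None of these pairs passed the adjustment. For Map4 and Mapt, r was -0.74 without vehicle replicate 1 and -0.54 without the 2 libraries farthest from the median of Map4. For Map4 and Tubb3 it was -0.55 and -0.45.

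**Figure D4:**
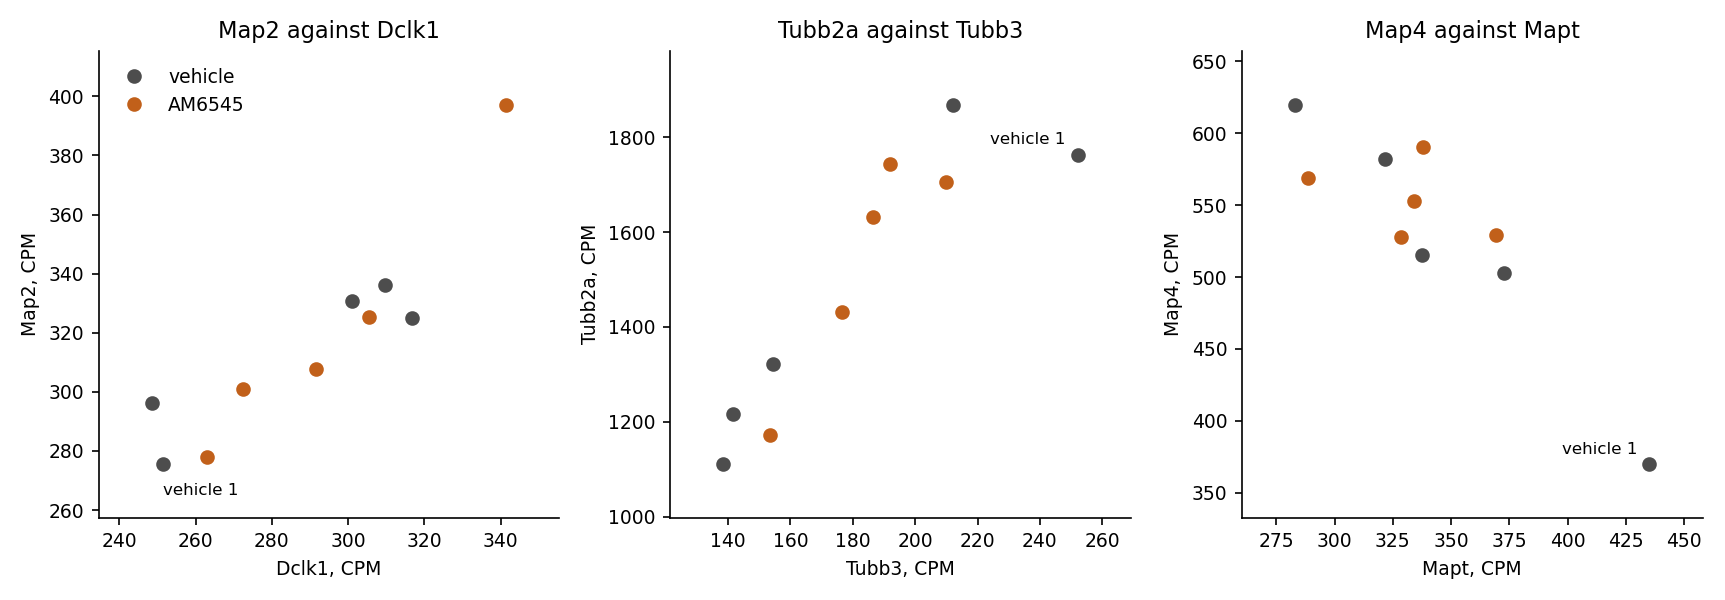
CPM of Map2 against Dclk1, Tubb2a against Tubb3 and Map4 against Mapt (linear axes that do not start at 0; each point is 1 library, colours give the group, and vehicle replicate 1 is marked). Vehicle replicate 1 lies at the end of the Map4 and Mapt panel, at 370.1 and 435 CPM, apart from the other 9 libraries.

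Vehicle replicate 1 also stood apart in how it represented long transcripts. The median deviation of genes over 5000 bases minus that of genes under 2000 bases (log2 scale, from the mean of all libraries) was -0.44 in this library, beside -0.10 to 0.22 in the other 9. Across the 10 libraries, Map4 had r = 0.91 with this measure (permutation p = 0.018, adjusted p = 0.13 over 10 genes) and rho = 0.65 (permutation p = 0.082, adjusted p = 0.25). Without the 2 libraries farthest from its median, r was 0.36. Tubb3 had r = -0.75 (permutation p = 0.050, adjusted p = 0.13) and rho = -0.58 (permutation p = 0.18, adjusted p = 0.33), with r = -0.21 without those 2 libraries. Map2 had r = 0.54 (permutation p = 0.041, adjusted p = 0.13) and rho = 0.68 (permutation p = 0.037, adjusted p = 0.25), with r = 0.36 without those 2. Stmn2 had r = -0.60 (permutation p = 0.042, adjusted p = 0.13) and rho = -0.59 (permutation p = 0.099, adjusted p = 0.25), with r = -0.45 without them. Map6 had r = 0.61 (permutation p = 0.065, adjusted p = 0.13), and 0.31 without them. Mapt had r = -0.67 (permutation p = 0.11, adjusted p = 0.19), and 0.39 without them. Tubb2a had r = -0.53 and Dclk1 r = 0.52, and -0.069 and 0.23 without them. Map1b had r = 0.34 and Map1a r = -0.16, and 0.43 and 0.20 without them. No member passed the adjustment. Without those 2 libraries r was weaker for Map4, Tubb3, Map2, Stmn2, Map6, Tubb2a and Dclk1, and it changed sign for Mapt and Map1a. The part of transcript length in the members' joint variation was not tested.

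Of the marker lists for other cell types, that of interneurons moved most closely with the tubulins and with Stmn2. Its 8 genes, which include Gad1, Pvalb and Sst, were all detected and summed to 697 to 954 CPM with vehicle and 707 to 965 CPM with AM6545. The sum had r = 0.87 with Tubb3 (permutation p = 0.0036) and rho = 0.78 (permutation p = 0.019). With Stmn2 it had r = 0.85 (permutation p = 0.0070) and rho = 0.83 (permutation p = 0.011). Its r was 0.79 with Tubb2a (permutation p = 0.020), 0.68 with Mapt (permutation p = 0.051) and -0.59 with Map4 (permutation p = 0.11). Over the 100 relations of 10 genes with 10 lists the smallest adjusted p was 0.35 for r and 0.49 for rho. The oligodendrocyte sum had r = -0.50 with Tubb3 (permutation p = 0.044, adjusted p = 0.55). Between the groups, 2 genes of the immature granule neuron list (Calb2, log2 fold change 0.50, and Igfbpl1, 0.73, of 6 tested) were higher after AM6545 at an unadjusted p under 0.05 (edgeR). So was 1 astrocyte marker (Aldh1l1, 0.27, of 8), beside 1.14% of all genes tested. None of these lists had an adjusted call. With vehicle and AM6545 the sums were 196 ± 6.36 and 207 ± 17.8 CPM for the immature granule neuron list (mean ± SD, n = 5 per group). For the astrocyte list they were 4260 ± 277 and 4305 ± 606 CPM (mean ± SD, n = 5 per group), and the groups overlapped in both. The part of these cells in the members' variation was not tested.

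Among all other genes tested, those whose pattern over the 10 libraries was most like that of Map2 were Rlim (r = 0.98), Arhgap26 (r = 0.98) and Myo5a (r = 0.97). For Mapt they were Hdhd2 (r = 0.97), Fnta (r = 0.96) and Wdr70 (r = 0.95). These are the highest of 14358 genes and are given as a description, on log2 CPM with the group mean removed.

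The annotated transcripts of Map2 encode different forms of the protein, and the counts assigned to each are described here. Of 24 entries, 20 had a count in at least 1 library and 8 were tested. None had an unadjusted p under 0.05 in edgeR's test, beside 1.97% of all 31848 transcripts tested, and 0.00314% of all transcripts (1) passed the adjusted threshold. Transcripts without the 3741-base exon encode the low-molecular-weight forms, best known from the developing brain. Those with it encode the long forms that fill mature dendrites.

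Map2-202, whose coding sequence of 1401 bases lacks both the 3741-base and the 93-base exon, held the largest mean share of the gene's counts. Its share was 67.2, 32.4, 52.0, 61.0 and 60.4% in vehicle 1 to 5 and 65.6, 59.0, 55.0, 45.5 and 42.6% in AM6545 1 to 5. In vehicle replicate 2 the long form Map2-204 held more, at 35.5%. Map2-201 has a coding sequence of the same length, and its estimate went from 0 counts in 5 libraries (vehicle 1 and 5, AM6545 1, 2 and 3) to 981 counts in vehicle replicate 2, where Map2-202 was lowest. Summed over the 3 transcripts with a 1401-base coding sequence (Map2-201, Map2-202 and Map2-205), the share was 60.1 ± 7.94% with vehicle and 58.6 ± 5.24% with AM6545 (mean ± SD, n = 5 per group).

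Map2-204, the long form with a coding sequence of 5484 bases, held 21.3, 35.5, 24.2, 23.5 and 23.8% in vehicle 1 to 5 and 20.2, 24.0, 22.1, 31.2 and 31.8% in AM6545 1 to 5. Vehicle replicate 2 was high in its group, and AM6545 replicates 4 and 5 were high in theirs. All transcripts with the 3741-base exon together held 27.2 ± 6.78% with vehicle and 27.5 ± 6.03% with AM6545 (mean ± SD, n = 5 per group; two-sided exact permutation test, p = 0.944). Map2-207, a short form with the 93-base repeat exon printed above, held 7.03, 10.8, 10.2, 10.5 and 11.4% in vehicle 1 to 5. In AM6545 1 to 5 it held 9.23, 13.2, 19.7, 11.7 and 3.01%, a wider spread whose ends were replicates 3 and 5 (exact permutation p = 0.651). In M21 Map2-204 ends 184 bases after its coding sequence, and the short forms named here run on for 3577 or 3579 bases. Among these transcripts, reads from a long 3′ end could therefore be assigned only to short forms, and their share cannot be told apart from that of long forms with a long 3′ end.

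**Figure D5:**
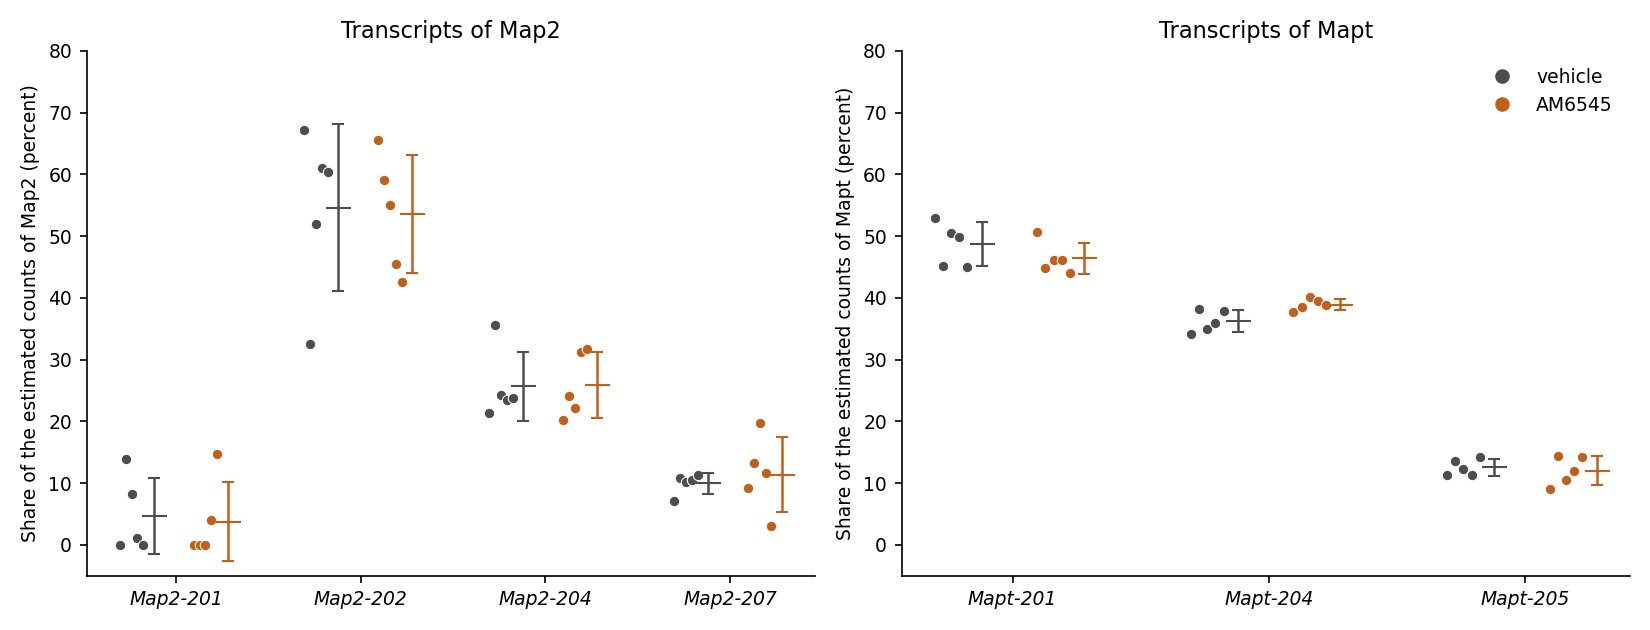
Share of the gene's estimated counts (percent, linear axis) held by the named transcripts of Map2 (left) and Mapt (right); each point is 1 library in replicate order, and bars are the mean ± SD of 5 libraries. Map2-201 is highest in vehicle replicate 2 (13.8%) and AM6545 replicate 5 (14.8%), where Map2-202 is lowest in its group, and Mapt-204 lies at 37.7 to 40.1% in AM6545 and 34.2 to 38.1% in vehicle libraries.

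All 12 transcripts of Mapt had a count, and 6 were tested. None had an unadjusted p under 0.05 in edgeR's test, and the smallest p belonged to Mapt-203 (log2 fold change 0.50, SE 0.24), at 3.98 ± 0.929 CPM with vehicle and 5.64 ± 1.55 CPM with AM6545 (mean ± SD, n = 5 per group). Mapt-203 and Mapt-202 contain the 759-base exon that makes big tau, a form known from peripheral neurons. Transcripts with that exon held 1.90 ± 0.609% of the counts with vehicle and 1.99 ± 0.287% with AM6545 (mean ± SD, n = 5 per group; exact permutation p = 0.746).

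Mapt-201, which carries both amino-terminal 87-base exons, held 53.0, 45.1, 50.5, 49.9 and 45% of the gene's counts in vehicle 1 to 5 and 50.7, 44.9, 46.2, 46.2 and 44.0% in AM6545 1 to 5 (exact permutation p = 0.310). Mapt-204, which lacks both, held 34.2, 38.1, 34.9, 35.9 and 37.9% in vehicle 1 to 5 and 37.7, 38.4, 40.1, 39.4 and 38.9% in AM6545 1 to 5. Here 4 of 5 AM6545 libraries lay above every vehicle library, and the means were 36.2 ± 1.76% and 38.9 ± 0.908% (mean ± SD, n = 5 per group). The exact permutation test gave p = 0.024, where 0.00794 is the smallest p that 5 libraries against 5 can give. After Benjamini-Hochberg adjustment over the 15 shares tested it was 0.36, so the difference failed the correction, as did all 15. Mapt-205, with the 54-base exon, held 12.5 ± 1.34% with vehicle and 12 ± 2.32% with AM6545 (mean ± SD, n = 5 per group; exact permutation p = 0.643). The CPM of Mapt-204 itself was 127 ± 15.2 with vehicle and 129 ± 11.2 with AM6545 (mean ± SD, n = 5 per group; edgeR log2 fold change 0.033, SE 0.098).

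The 3′ ends of these Mapt models differ as well as their exons. Mapt-204 runs on for 3906 bases after its coding sequence in M21, against 35 bases in Mapt-201 and 251 in Mapt-205. Its share of counts thus includes reads from a long 3′ end, which among these transcripts could be assigned only to Mapt-204. That share therefore cannot be told apart from that of mRNAs with the exons of Mapt-201 or Mapt-205 and a long 3′ end. Length scaling starts from the same assignment and does not remove this limit. As a share of length-scaled abundance Mapt-204 held 12.9% in vehicle and 14.3% in AM6545 libraries, while Mapt-201 held 66.9% and 65.5%.

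The wider microtubule machinery gave the same picture as the members. Of 113 other genes in 7 lists, 107 were tested, and edgeR called 0 with an adjusted p under 0.05. At an unadjusted p under 0.05 there were 2 higher after AM6545 and 0 lower (1.87% of 107), beside 1.14% higher and 0.738% lower over all genes tested. DESeq2 gave 0 and 2, and limma-voom 0 and 6, at the adjusted and the unadjusted threshold. The median log2 fold change was 0.024, beside -0.0057 over all genes tested, with 65 genes above 0 and 42 below. The share of all genes above 0 is not given. Counts above and below 0, here and for each list, therefore cannot be read as a lean in direction. Leaving out vehicle replicate 1 or AM6545 replicate 4 left 0 genes at the unadjusted threshold, leaving out vehicle replicate 3 or 5 or AM6545 replicate 1 or 5 left 1, and leaving out vehicle replicate 2 gave 4. The share over all genes is not given for DESeq2, limma-voom or the fits with a library left out. Their counts therefore cannot be read as more or fewer than among all genes.

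The 2 genes were Tubb4a and Hdac6. Tubb4a, a β-tubulin prominent in oligodendrocytes, was at 609 ± 72.3 CPM with vehicle and 721 ± 74.5 CPM with AM6545 (mean ± SD, n = 5 per group). Its log2 fold change was 0.24 (SE 0.11; edgeR adjusted p = 0.9998), and 1 AM6545 library lay above all vehicle libraries. The summed oligodendrocyte markers, all 8 detected, ran from 14460 to 20977 CPM with vehicle (mean 16302, median 15729) and from 12272 to 28275 CPM with AM6545 (mean 18092, median 15261), and their part in this result was not tested. Hdac6, the main tubulin deacetylase, was at 25.8 ± 2.83 and 30.2 ± 2.35 CPM (mean ± SD, n = 5 per group), with 3 AM6545 libraries above all vehicle libraries and a log2 fold change of 0.22 (SE 0.10; edgeR adjusted p = 0.9998).

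Of the 14 tubulins tested, 8 were above 0 and 6 below. After Tubb4a the smallest p belonged to Tube1 (log2 fold change 0.29, SE 0.16) and Tubd1 (-0.26, SE 0.15), both tubulins of centrioles and at under 10 CPM. Of 11 other structural microtubule-binding proteins, 8 were above 0 and 3 below. The smallest p belonged to Map1s (0.14, SE 0.11), a relative of Map1a and Map1b, to the autophagy protein gene Map1lc3b (-0.12, SE 0.10) and to Map7d1 (0.10, SE 0.10). Of 6 doublecortins and stathmins, 4 were above 0 and 2 below, led by Stmn4 (0.12, SE 0.090), Dclk2 (0.14, SE 0.11) and Stmn3 (-0.13, SE 0.16). None of these genes had an unadjusted p under 0.05.

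Of 20 proteins of microtubule ends, 16 were above 0 and 4 below, without any call, with a median log2 fold change of 0.048 and extremes of -0.041 and 0.17. The smallest p belonged to the end-binding protein gene Mapre3 (0.17, SE 0.15), to Clip3 (0.13, SE 0.12) and to the minus-end protein gene Camsap3 (0.16, SE 0.15). The 8 severing enzymes tested included Fign (0.41, SE 0.27), at 0.843 and 1.13 CPM, Katnal1 (0.13, SE 0.097) and Katnal2 (-0.13, SE 0.16). Of 21 genes of tubulin modification and folding, 9 were above 0 and 12 below. After Hdac6 came the tubulin folding cofactor gene Tbcd (0.22, SE 0.11) and Tpgs2 (-0.11, SE 0.086), which belongs to the tubulin polyglutamylase complex. Of 27 kinase and phosphatase genes that act on tau and its relatives, 15 were above 0 and 12 below. The smallest p belonged to the CDK5 activator gene Cdk5r2 (0.22, SE 0.12), to Gsk3b (-0.17, SE 0.11), which encodes a tau kinase, and to Mark1 (0.15, SE 0.10), whose kinase phosphorylates microtubule-associated proteins in their repeats.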

How the data were processed

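Per the labels' protocols, total RNA of hippocampal synaptoneurosomes was made into libraries with SMARTer Ultra Low Input reagents. The authors deposited estimated counts per gene and per transcript, and the unit was read from the values, many of which are not whole. Salmon 1.5.2 and mm10 are named in the submitters' processing notes. The annotation release and the use of strand are not given in the sources used here. Groups and replicate numbers came from the library titles. Symbols, transcript structures and sequences came from GENCODE M21 (GRCm38), matched by identifier without version: 22155 of 22255 genes and 101527 of 102392 transcripts matched. Only 11 gene identifiers, and 0 of the Map2 and Mapt transcripts, carry the same version there, so exon structures may differ from those used for counting.

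Counts were rounded and tested with edgeR 4.0.16 in R 4.3.3 (TMM, filterByExpr with minimum count 10 and minimum total 15, group alone as design, robust quasi-likelihood dispersions, Benjamini-Hochberg adjusted p under 0.05, two-sided). Log2 CPM used a prior count of 2. Shares of a gene's counts were tested by exact permutation. The 10 libraries and their totals limit precision, and intervals cover the spread between libraries but not the error of dividing reads between transcripts. Alternatives used DESeq2 1.42.0, limma 3.58.1 (voom with sample quality weights), other scalings and filters, a replicate block and each library left out in turn. The scripts were tested on simulated data. Python 3.11.15, numpy 2.4.6, pandas 2.3.3, scipy 1.17.1 and matplotlib 3.10.9 were used.

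The members, lists and tests were chosen with earlier results of these data known. Named were all members, Map2 and Mapt transcripts with a mean share of at least 5% or an unadjusted p under 0.05, up to 3 genes of smallest p per list, and the 3 genes most like Map2 and Mapt. Other transcripts named, the transcript length measure, the Mapt to Map2 ratio, the 93-base exon share and the marker relations were added after values were seen. Of the marker lists, astrocyte (3408 to 4883 CPM), microglia (697 to 973), endothelial (22.0 to 41.2), choroid plexus (62.5 to 5110), red blood cell (285 to 1334), immature granule neuron (186 to 232) and dendritic mRNA (1756 to 2121) sums overlapped between groups. Only 1 of 6 nuclear retained RNAs was in the table, so that list was void.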

Additional observations from a re-analysis of the deposited data

Results flagged for a closer look

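In 76 groups of 5 libraries, 8 had 1 library far from the other 4 (Dixon's ratio over 0.71), where chance alone gives about 3.8. For Map2, vehicle replicate 2 was high in the share of Map2-204 (35.5%, others 21.3 to 24.2%) and of all transcripts with the 3741-base exon (39.0%, others 22.0 to 26.0%), which largely count the same reads. Vehicle replicate 1 was low in the share of Map2-207, and of all Map2 transcripts with the 93-base exon, which in vehicle libraries are the same transcript (7.03%, others 10.2 to 11.4%). Among marker sums, vehicle replicate 3 was high for oligodendrocytes (20977 CPM, others 14460 to 15735) and vehicle replicate 2 for immature granule neurons (206.9 CPM, others 192 to 195). AM6545 replicate 5 was high for endothelium (41.2 CPM, others 22.2 to 24.1) and AM6545 replicate 3 for red blood cells (1334 CPM, others 329 to 468). No library was set apart in this way in the level of any of the 10 genes.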

How the results depend on the processing

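Members called numbered 0, adjusted or unadjusted, in all 18 alternatives. The number of genes with an adjusted p under 0.05 was 0, and 1 with limma-voom. Transcripts numbered 1, and 11 with the DESeq2 Wald test, 2 without a filter or without robust dispersions, and 0 with limma-voom, with at least 10 counts in every library or with the replicate block. Leaving out each library gave 0 to 1 genes, 0 to 4 transcripts, 0 to 4 correlated pairs and, at the unadjusted threshold, 0 to 4 genes of the microtubule lists. Those genes numbered 1 with total counts alone and 6 with limma-voom, and the share of all genes at that threshold is not given beside them. The cause of these differences was not tested.

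With limma-voom and its sample quality weights the log2 fold change was 0.042 for Map1b and 0.032 for Stmn2, opposite in sign to edgeR. It was 0.23 for Tubb2a and 0.22 for Tubb3, beside 0.078 and 0.030 in edgeR. The part of the weights in these differences was not tested. Leaving out each library gave ranges of log2 fold change that crossed 0: Map1b -0.066 to 0.047, Map2 -0.045 to 0.090, Map4 -0.0032 to 0.17, Mapt -0.15 to 0.013, Tubb3 -0.050 to 0.18, Tubb2a -0.0051 to 0.18, Stmn2 -0.081 to 0.046 and Dclk1 -0.012 to 0.086. Differences in share (percentage points) ran from -1.28 to 2.65 for Map2-204, -6.62 to 2.08 for Map2-202, -0.70 to 3.46 for Map2-207, -1.47 to 3.32 for the 3741-base exon, and -1.13 to 0.20 for Mapt-205 and its 54-base exon. They ran from -0.041 to 0.0013 for protein-coding Mapt, -0.029 to 0.046 for the 66-base, -0.14 to 0.23 for the 759-base and -0.10 to 0.29 for the 198-base exon of Mapt.

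Same-numbered libraries of the 2 groups deviated from their group means with r of -0.14, -0.19, 0.23, 0.39 and 0.06. Values for libraries of different number are not given beside these. Whether same-numbered libraries share more than a number was thus not tested. With this replicate block, genes called stayed at 0, transcripts went from 1 to 0, and the list genes at the unadjusted threshold stayed at 2. Totals of 18106112 to 25899794 counts gave every member at least 1235 counts per library, while only 7 transcripts of Map2 and 8 of Mapt had a count in all 10 libraries.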
